A study of Mus musculus with 672 samples.

Results

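The T cell receptor signals through a fixed set of proteins, and 9 of their genes were followed here through lymphoid progenitors of the bone marrow: Cd3e, Cd3d, Cd3g, Cd247, Lck, Zap70, Lat, Cd28 and Cd7. They were taken by name from a table of 46078 genes. All 9 were found in the table, and 8 of them were among the 19903 genes with enough reads to be tested (Cd3g was not). Lck and Lat had at least 10 reads in 61.5% and 53.3% of the kept cells and were read in every gate. Cd247, Cd28 and Zap70 had few reads before the all-lymphoid stage, and nearly all reads of Cd3e and Cd3g came from 2 cells.

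The marrow came from femurs and tibiae of 4 mice of strain C57BL6/129Ola, aged 7 weeks. Control mice (18218 and 18220) carried Mbd3flox/flox alleles and null mice (18217 and 18219) carried Mbd3del/del alleles. Mbd3 encodes a subunit of the NuRD chromatin remodelling complex, and which Cre driver made the deletion, and in which cells, could not be read from the sources used here. Lymphoid-primed multipotent progenitors (LMPPs) were sorted as Lin-, Sca-1+, c-Kit+ and Flt3-high cells without IL-7Ra or B220. All-lymphoid progenitors (ALPs) had IL-7Ra and no Ly6D, and B cell-biased progenitors (BLPs) had IL-7Ra and Ly6D, both also without B220. Each mouse gave 48 LMPPs, 84 ALPs and 36 BLPs, of which 561 cells were kept and 111 left out. Reads of the kept cells were summed per mouse and gate into 12 libraries of 53741264 to 137497554 gene counts. The mouse is the replicate, with 2 per genotype. Transcripts of the sorting proteins followed the gates: Il7r stood at 3.72 to 26.7 CPM (reads scaled to a common library total) in LMPP libraries and at 546 to 874 in ALP libraries, and Ly6d reached 1501 to 3749 in BLP libraries. Mbd3 stood at 48.1 to 191 CPM in control libraries and at 0.189 to 24.7 in null libraries. Of the cells left out, 86 were ALPs of mice 18219 and 18220.

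In a mature T cell the antigen-binding receptor chains have short tails and depend on CD3 epsilon, delta and gamma and on the zeta chain, encoded by Cd247, to pass a signal inward. The kinase LCK phosphorylates those chains, ZAP70 docks on them and phosphorylates the scaffold LAT, and CD28 adds a costimulatory signal. T cells form in the thymus from progenitors that leave the marrow, and commitment to the T lineage is marked by Bcl11b and by Cd3 gene expression.

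The upstream sequences of 5 members are shown because they stand at the opposite ends of the data: Lck and Lat were the most widely read members and the 3 Cd3 genes the least. Lck has a distal and a proximal start, and both are given. The Cd3 genes lie side by side on chromosome 9 within 40056 bases, and the starts of Cd3g and Cd3d face away from each other at a distance of 1355 bases. The 250 bases before each start are from RefSeq (GRCm38.p6), printed 5′ to 3′ on the gene's strand. Capitals mark matches on either strand to the ETS core AGGAAG, the E-box CAGGTG, the Runx core TGTGGT, the core of Tcf and Lef factors CTTTGA or, for the GATA family, the letters AGATAA, and no matches overlapped in these windows.
Lck distal, chr4:129573642-129573891, minus strand: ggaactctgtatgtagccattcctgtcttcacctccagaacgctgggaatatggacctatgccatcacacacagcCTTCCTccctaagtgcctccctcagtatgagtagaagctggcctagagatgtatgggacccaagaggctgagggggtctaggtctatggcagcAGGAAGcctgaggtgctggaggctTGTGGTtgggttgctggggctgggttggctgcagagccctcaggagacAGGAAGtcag
Lck proximal, chr4:129558373-129558622, minus strand: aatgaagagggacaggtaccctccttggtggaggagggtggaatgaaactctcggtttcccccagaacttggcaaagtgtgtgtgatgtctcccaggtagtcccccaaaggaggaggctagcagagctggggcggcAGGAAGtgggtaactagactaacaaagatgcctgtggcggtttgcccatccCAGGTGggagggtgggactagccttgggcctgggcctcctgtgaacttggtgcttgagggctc
Lat, chr7:126369569-126369818, minus strand: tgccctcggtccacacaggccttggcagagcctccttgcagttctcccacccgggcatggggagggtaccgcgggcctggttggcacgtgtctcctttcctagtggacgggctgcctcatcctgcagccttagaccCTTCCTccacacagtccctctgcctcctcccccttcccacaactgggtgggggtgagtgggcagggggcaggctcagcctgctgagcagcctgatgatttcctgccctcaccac
Cd3e, chr9:45009612-45009861, minus strand: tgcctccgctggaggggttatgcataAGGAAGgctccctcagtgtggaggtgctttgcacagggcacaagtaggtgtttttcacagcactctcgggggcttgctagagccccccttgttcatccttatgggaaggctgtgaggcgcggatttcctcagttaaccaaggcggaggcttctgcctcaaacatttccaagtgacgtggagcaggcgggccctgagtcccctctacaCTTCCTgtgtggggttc
Cd3d, chr9:44981536-44981785, plus strand: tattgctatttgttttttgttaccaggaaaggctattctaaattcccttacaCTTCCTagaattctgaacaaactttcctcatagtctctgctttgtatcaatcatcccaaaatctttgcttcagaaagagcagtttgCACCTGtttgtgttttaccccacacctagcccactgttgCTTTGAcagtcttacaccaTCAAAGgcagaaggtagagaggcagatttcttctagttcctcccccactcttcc
Cd3g, chr9:44980432-44980681, minus strand: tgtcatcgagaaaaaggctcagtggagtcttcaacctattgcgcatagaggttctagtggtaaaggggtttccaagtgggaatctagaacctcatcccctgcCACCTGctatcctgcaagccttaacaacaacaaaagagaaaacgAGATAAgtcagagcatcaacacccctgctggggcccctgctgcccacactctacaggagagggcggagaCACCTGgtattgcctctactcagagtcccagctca
The distal Lck window held 3 ETS matches and a Runx match, the proximal one an ETS match and an E-box, and Lat 1 ETS match. Cd3e held 2 ETS matches, Cd3d held an ETS match, an E-box and 2 Tcf/Lef matches, and Cd3g held 2 E-boxes and a GATA match. Among 32536 RefSeq windows of this length, 29.6% held the ETS letters, 17.3% the E-box, 14.0% the Runx letters, 10.0% the GATA letters and 13.9% the Tcf/Lef letters. These are letter matches only. RefSeq windows were found for 7 of the 9 members, without Cd28 and Cd7.

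The CD3 chains were all but missing. Cd3e (chromosome 9, 44998740 to 45009627, GRCm38) had 968 reads in the ALPs of control mouse 18220, or 13.4 CPM. The other ALP libraries held 1, 0 and 0 reads, the LMPP libraries 1, 0, 0 and 1, and the BLP libraries 1, 6, 45 and 0 (in the order control 18218, control 18220, null 18217 and null 18219, used throughout). Cd3g (44969572 to 44980431) had 1202 reads, 16.6 CPM, in that same ALP library and at most 6 reads in any other. Cd3d (44981786 to 44987339) stood at 9.52 CPM in it and at 7.20 CPM in the BLPs of null mouse 18217, with 0 to 0.288 CPM in the other 10. So a single library was high for Cd3e and Cd3g and a pair of libraries for Cd3d. The ALP libraries of Cd3d (0.226 CPM or more) were all above its LMPP libraries (at most 0.0943 CPM), at a level of few reads in 3 of the 4 mice. At least 10 reads of Cd3e were found in 3 of 561 kept cells, of Cd3g in 2 and of Cd3d in 8. None of 186 LMPPs reached 10 reads of any of the 3 genes (0 cells, which allows a share of up to 1.61% by counting error alone).

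**Figure D1:**
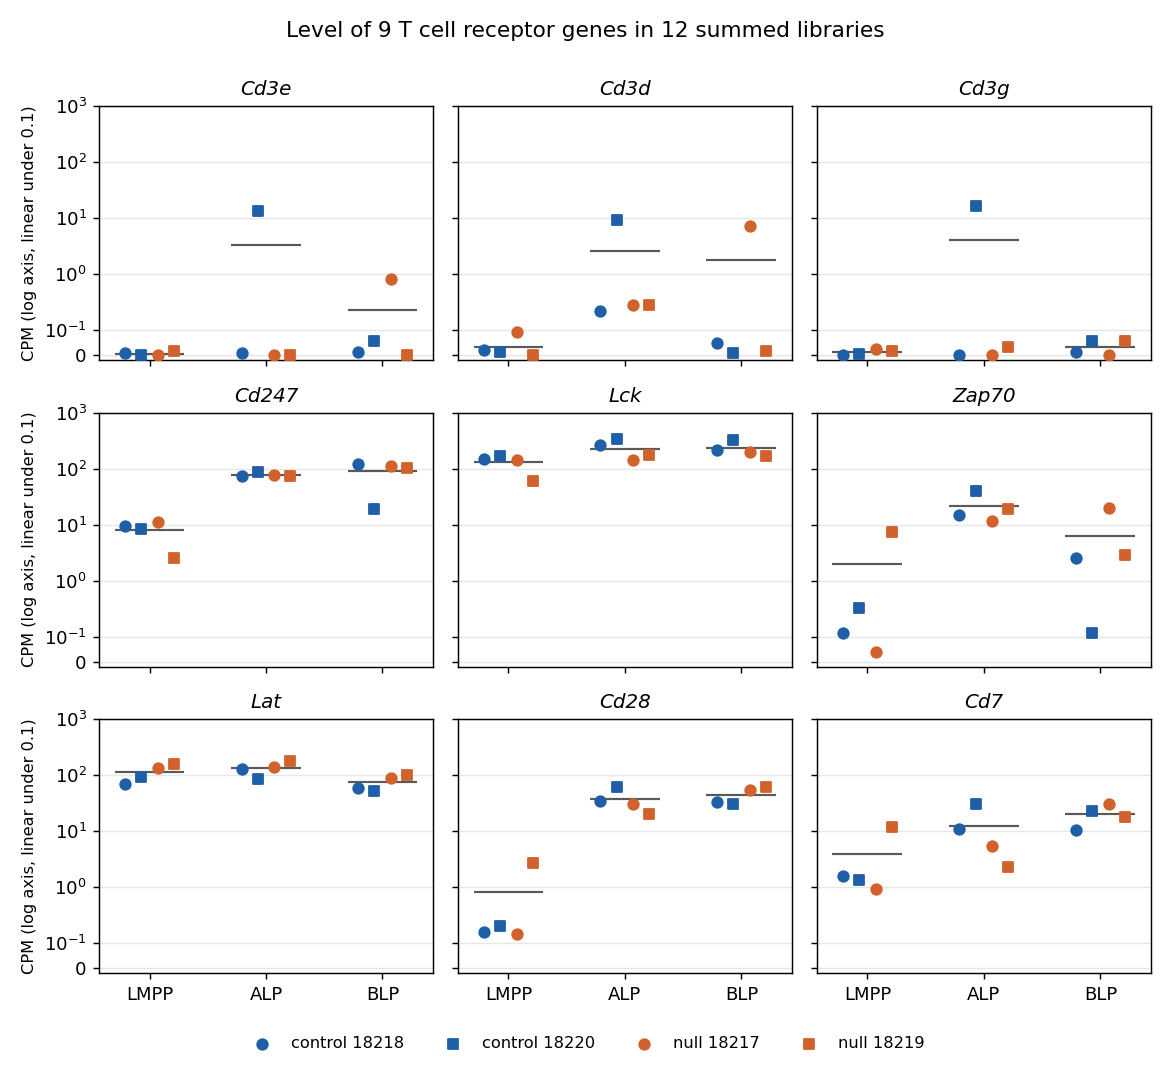
Level of each gene in CPM (log axis, linear under 0.1) in the 12 summed libraries, by gate; each point is 1 mouse, blue control and orange null, and bars are means over 4 mice. Cd3e and Cd3g stand above 1 CPM only in the ALPs of control mouse 18220, while Lck lies between 60.2 and 335 CPM in every library.

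The Cd3 reads came from cells 8 and 22 among the 40 kept ALPs of control mouse 18220. Together these 2 cells held 94.3% of all Cd3e reads, 98.5% of all Cd3g reads and 51.6% of all Cd3d reads. Cell 8 had 610 reads of Cd3e, 231 of Cd3d and 359 of Cd3g, and cell 22 had 355, 370 and 841. Both also carried the receptor chains and other T cell genes: Trac (the alpha chain, 150 and 2507 reads), Trbc2 (a beta chain, 1034 and 1546), Thy1 (192 and 201) and the kinase Txk (908 and 471). They differed from each other in the commitment factors, with 389 reads of Bcl11b and 0 of Tcf7 in cell 8, and 0 of Bcl11b and 555 of Tcf7 in cell 22. Genes of natural killer and innate-like lymphocytes were read in them too. Nkg7 had 1844 and 1522 reads, Il2rb 224 and 1974, and Tbx21 686 and 127, and cell 8 also had 1387 reads of Zbtb16 and 363 of Klrb1c. Nkg7 also reached 10 reads in 27 of the 38 other ALPs of the mouse. Ncr1, Gzma, Gzmb, Prf1 and Eomes did not reach 10 reads in either cell. Of the 10 mature T cell markers listed, 4 reached 10 reads in cell 8 and 5 in cell 22, against a median of 1 in the other 38 ALPs of the mouse. For the 15 natural killer and innate lymphoid markers these numbers were 7, 4 and 2, and for the 9 T commitment markers 4, 3 and 2.

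Progenitor transcripts were low in these same cells. Flt3, a receptor named above for the LMPP gate, stood at 3.63 and 8.58 CPM of the cell's own gene counts in cells 8 and 22. The median of the other 38 was 774. Cd34 stood at 2.42 and 3.22 against 480, Kit at 0 and 3.22 against 33.8, and Dntt, the lymphoid terminal transferase, at 36.3 and 71.8 against 6502. None of the 10 stem and multipotent markers reached 10 reads in either cell (median of the others 4). Il7r had 355 reads in cell 8 and 12 in cell 22. These transcripts go against the label of progenitor for these 2 cells, so levels that rest on them are also given without them. Without them, Cd3e in the library fell from 13.4 to 0.0426 CPM, Cd3g from 16.6 to 0.0284 and Cd3d from 9.52 to 1.23.

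**Figure D2:**
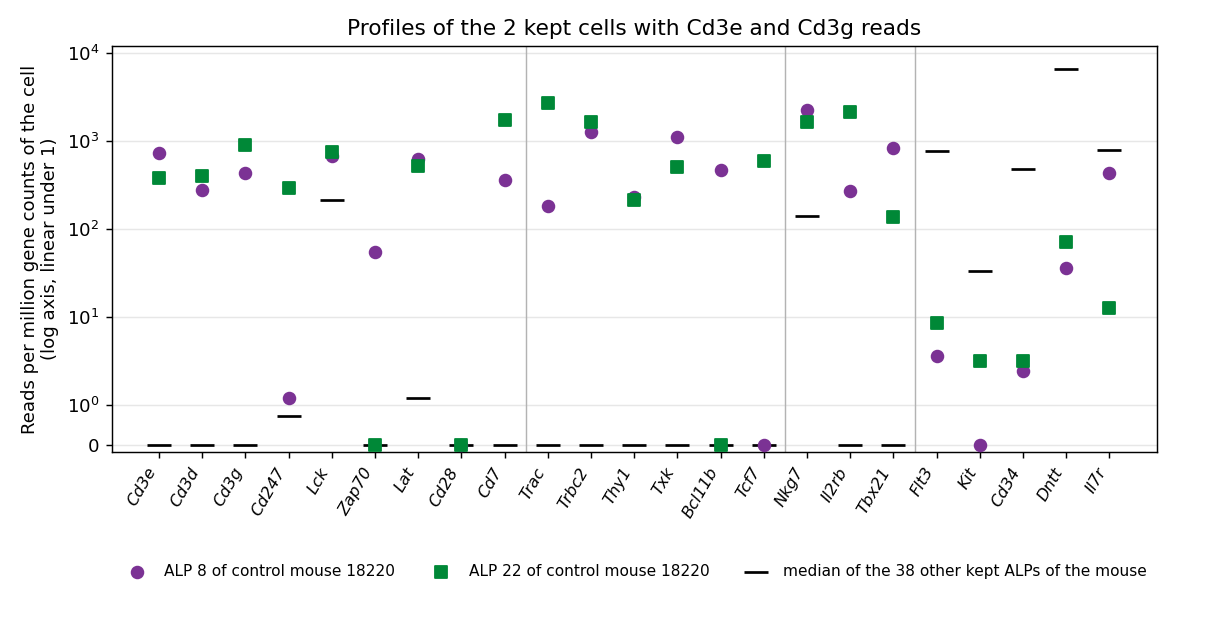
CPM of the cell's own gene counts (log axis, linear under 1) in ALPs 8 and 22 of control mouse 18220, with black bars for the median of the 38 other kept ALPs of that mouse; vertical lines part the 9 members, T cell genes, natural killer genes and progenitor genes. Both cells are high for the Cd3 genes, Trac and Trbc2 and low for Flt3, Cd34 and Dntt.

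Cd3d showed a further source. A BLP of null mouse 18217, cell 16, held 375 reads of Cd3d, 97.7% of that library's total, without Cd3e or Cd3g at 10 reads. This cell carried B lineage transcripts, with 4778 reads of Pax5, 25037 of Igll1 and 6135 of Cd79a, and 9 of 11 B lineage markers at 10 reads or more. Its Lck and Lat reads numbered 1922 and 1340. No other kept cell outside these 3 had as many as 100 reads of a Cd3 gene.

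Cd247 behaved otherwise than the CD3 chains it assembles with. The gene (chromosome 1, 165788681 to 165877277) encodes the zeta chain, which natural killer cells also use with other receptors. Its level was 9.39, 8.32, 11.3 and 2.56 CPM in LMPPs, 74.9, 86.4, 76.7 and 74.8 in ALPs, and 123, 19.1, 112 and 104 in BLPs. Every ALP library was above every LMPP library, and the 4 ALP libraries lay close together. In BLPs, control mouse 18220 stood far below the other 3. After each cell was thinned to 50000 counts, so that depth was equal, a Cd247 read was found in 6.50 ± 4.06% of LMPPs, 42.5 ± 3.70% of ALPs and 43.6 ± 18.2% of BLPs (SD, n = 4 mice). Reads were spread over many cells: the largest held 3.44% of the total, and 37 cells were needed for 50% of it. Of its 5329 merged exon bases, 3007 lie opposite exons of Pou2f1, and since the strand setting of the counting is not given, reads there cannot be assigned with certainty. Pou2f1 stood at 34.3 to 65.9 CPM in LMPPs, 36.5 to 69.6 in ALPs and 44.0 to 107 in BLPs, so its ALP and LMPP libraries overlapped.

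Lck, the kinase that starts the signal, was the most widely read member. Its levels (chromosome 4, 129548344 to 129573641) were 151, 171, 141 and 60.2 CPM in LMPPs, 261, 335, 141 and 176 in ALPs, and 219, 331, 202 and 167 in BLPs. The gates overlapped, and the LMPPs of null mouse 18219 were lowest. At least 10 reads were found in 345 of 561 cells (61.5%), and 55 cells were needed for 50% of its reads. The 2 ALPs with Cd3 reads held 0.613% of them. At equal depth 49.5 ± 5.60% of LMPPs, 72.4 ± 11.7% of ALPs and 71.5 ± 2.87% of BLPs had an Lck read (SD, n = 4 mice), and every ALP library (60.8 to 85.0%) exceeded every LMPP library (44.7 to 57.4%). Without thinning, a single read was found in a mean of 93.5%, 95.3% and 96.4%, so single reads at full depth hardly separated the gates.

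Zap70 (chromosome 1, 36761798 to 36782818) stood at 0.116, 0.326, 0.0404 and 7.52 CPM in LMPPs, 14.8, 40.4, 11.7 and 19.2 in ALPs, and 2.51, 0.115, 19.6 and 2.86 in BLPs. The ALP libraries were all above the LMPP libraries, while the BLP libraries overlapped both. The largest cell of each ALP library held 25.8% to 44.1% of its Zap70 reads, so few cells set these levels. At least 10 reads were found in 3 of 186 LMPPs, 29 of 235 ALPs and 10 of 140 BLPs. Of the ALPs with Cd3 reads, cell 8 had 46 Zap70 reads and cell 22 had 0.

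Lat, the membrane scaffold phosphorylated by ZAP70, was read in all gates. Its levels (chromosome 7, 126363824 to 126369570) were 70.4, 90.2, 133 and 156 CPM in LMPPs, 129.7, 84.1, 139 and 175 in ALPs, and 57.9, 52.7, 89.9 and 98.4 in BLPs. The null libraries were the higher ones in each gate, with no overlap with the controls. At equal depth 55.0 ± 15.8% of LMPPs, 64.8 ± 16.7% of ALPs and 36.4 ± 8.02% of BLPs had a Lat read (SD, n = 4 mice). Single cells weighed on some libraries: 43.7% of Lat reads in the LMPPs of control mouse 18220 and 50.7% in its BLPs came from 1 cell each.

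Cd28 (chromosome 1, 60716800 to 60773359) went from almost no reads to clear expression. LMPP libraries held 15, 28, 11 and 159 reads, or 0.158, 0.203, 0.148 and 2.73 CPM, and 145 of the 159 reads came from a single LMPP of null mouse 18219. ALP libraries stood at 33.8, 61.9, 30.2 and 20.2 CPM and BLP libraries at 32.9, 30.3, 54.9 and 60.5. All ALP and BLP libraries were above all LMPP libraries. The gene was on in a minority of cells, with at least 10 reads in 1 of 186 LMPPs, 39 of 235 ALPs (16.6%) and 18 of 140 BLPs (12.9%). Neither of the ALPs with Cd3 reads had a Cd28 read.

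Cd7 (chromosome 11, 121036747 to 121039418), a surface protein of T and natural killer cells and their progenitors, was low and uneven. It stood at 1.57, 1.35, 0.916 and 11.8 CPM in LMPPs, 10.8, 30.9, 5.51 and 2.27 in ALPs, and 10.3, 23.1, 30.3 and 18.0 in BLPs. The gates overlapped. In the ALPs of control mouse 18220, cell 22 alone held 1604 of 2234 reads, and without the 2 cells with Cd3 reads the library fell from 30.9 to 4.68 CPM. Over all kept cells those 2 held 17.0% of Cd7 reads.

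**Figure D3:**
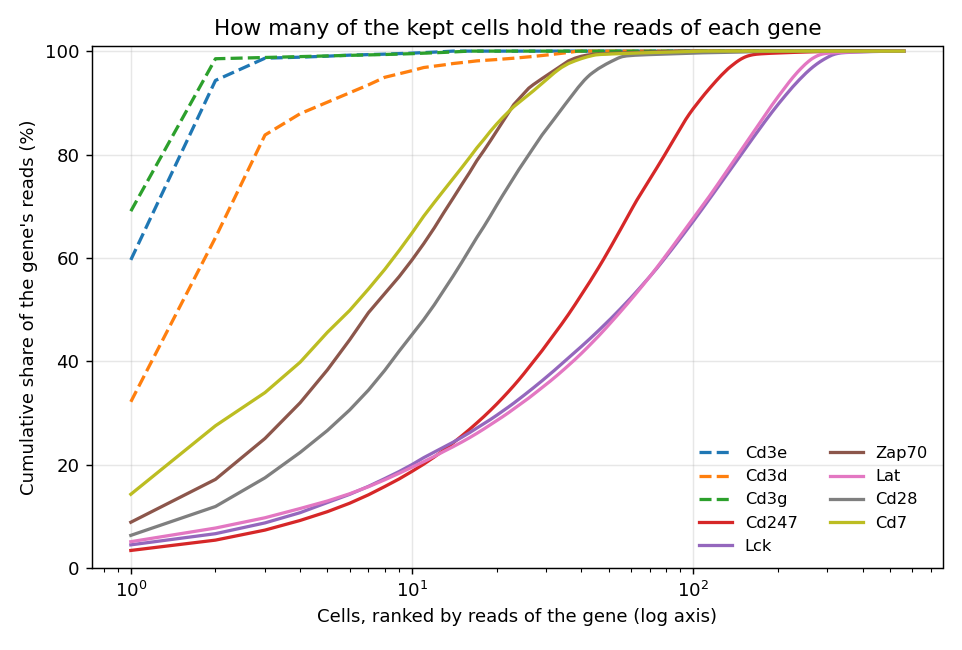
Cumulative share of each gene's reads (percent) over the 561 kept cells, ranked by their reads of that gene (log axis). The dashed curves of Cd3e, Cd3g and Cd3d start at 59.6%, 69.0% and 32.2% in the top cell, while Lck and Lat need 55 and 56 cells to reach 50%.

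The 3 Cd3 genes rested on fewer cells than the other 6 members. The largest cell held a median of 7.89% of a gene's reads over the 19903 genes, and more than 30% for 18.4% of them. A share as high as that of Cd3e (59.6%) was found for 5.19% of the genes tested, as high as that of Cd3g (69.0%) for 2.96% and as high as that of Cd3d (32.2%) for 16.9%. For Lat it held 5.14%, for Cd28 6.36%, for Zap70 8.90% and for Cd7 14.3%. Lck and Lat were among the widely read genes: 11.5% of genes tested had 10 reads in more cells than Lck, and 15.1% in more cells than Lat.

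Levels of different genes were compared per kilobase of merged exon, as CPM per kilobase over the 4 mice. In LMPPs Lck (44.7 ± 16.6) and Lat (40.6 ± 14.1) overlapped and stood above the rest, followed by Cd7 (3.46 ± 4.67), Cd247 (1.48 ± 0.707), Zap70 (0.668 ± 1.23) and Cd28 (0.132 ± 0.210), where neighbours in the order overlapped. In ALPs Lck (77.9 ± 29.8) and Lat (47.6 ± 13.4) again overlapped, and Cd247 (14.7 ± 1.03), Cd7 (10.9 ± 11.3), Zap70 (7.20 ± 4.33) and Cd28 (5.97 ± 2.92) came after, each overlapping the next. In BLPs Lck (78.4 ± 24.2) was above Lat (27.0 ± 8.24) in every library, then came Cd7 (18.0 ± 7.42), Cd247 (16.8 ± 8.93), Cd28 (7.29 ± 2.50) and Zap70 (2.10 ± 3.00). The 3 Cd3 genes were lowest in ALPs, at means of 0.821 to 1.42 with SDs larger than the means, and at 0.00310 to 0.280 without the 2 cells. Without them Cd7 in ALPs was at 5.14 ± 3.19.

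Cells with 10 reads of a member outside the Cd3 genes seldom had 10 reads of 6 genes of the T lineage, which were rare in all kept cells. Of the 345 cells with at least 10 Lck reads, 319 (92.5%) had fewer than 10 reads of each of Cd3e, Cd3d, Cd3g, Trac, Bcl11b and Tcf7, a set chosen after values were seen. The same held for 282 of 299 Lat cells (94.3%), 160 of 168 Cd247 cells (95.2%), 55 of 58 Cd28 cells (94.8%), 37 of 42 Zap70 cells (88.1%) and 38 of 45 Cd7 cells (84.4%). Of the Cd3d cells 6 of 8 had none of the other 5 genes, of the Cd3e cells 1 of 3 and of the Cd3g cells 0 of 2. Other genes of T cells were more frequent, with 10 reads of Trbc2 in 108 kept cells. The 6 genes were rare throughout, Tcf7 being the most frequent at 2.67% of kept cells and Bcl11b reaching 10 reads in 3 cells. Genes this rare leave a high share without them for any member, so these shares do not set the members apart from T lineage genes. Seen from the other side, Lck had 10 reads in 13 of 15 Tcf7, 8 of 10 Trac and 7 of 8 Cd3d cells. It had them in 2 of 3 Bcl11b, 2 of 3 Cd3e and 2 of 2 Cd3g cells, against 61.5% of all kept cells. Genes of other lineages were read in the same cells as the members. Of the Lck cells 150 had 10 reads of the B lineage factor Ebf1 and 268 of the myeloid enzyme Mpo, which were found in 38.9% and 75.4% of all kept cells. Siglech, a plasmacytoid dendritic cell gene, was at 10 reads in 28 of 58 Cd28 cells and 27 of 45 Cd7 cells. It was at 10 reads in 18 of 42 Zap70, 62 of 168 Cd247, 111 of 345 Lck and 73 of 299 Lat cells. The share of all kept cells was 26.7%, but that base pools the gates. Only 1 of 186 LMPPs was a Cd28 cell, and the part of the gate in these shares was not tested. The summed level of the 8 plasmacytoid dendritic markers was 459 to 674 CPM in LMPPs, 752 to 2803 in ALPs and 2418 to 4101 in BLPs. Cd28 had means of 0.811, 36.5 and 44.6 CPM in these gates. The part of plasmacytoid dendritic transcripts in the Cd28 values was not tested.

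Members also met in the same cells. At least 10 reads of both Lck and Lat were found in 191 of the 561 kept cells, with 345 Lck and 299 Lat cells in all. Lck and Cd247 met in 121 cells, with 168 Cd247 cells in all. Cd28 and Cd247 met in 28 and Cd247 and Zap70 in 23, with 58 Cd28 and 42 Zap70 cells. Widely read genes share many cells even when unrelated, and these counts pool gates and depths. Whether members met more often than their separate frequencies give was not tested. At equal depth, 2 or more of the 9 members were read in 27.7% to 37.8% of LMPPs per mouse and in 67.1% to 83.3% of ALPs. No member was read in 12.8% to 34.0% of LMPPs and in 0 to 7.59% of ALPs, so the gates did not overlap in either share. BLPs of control mouse 18220 stood apart at 28.6% with 2 or more members, against 62.9% to 66.7% in the other 3 mice.

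**Figure D4:**
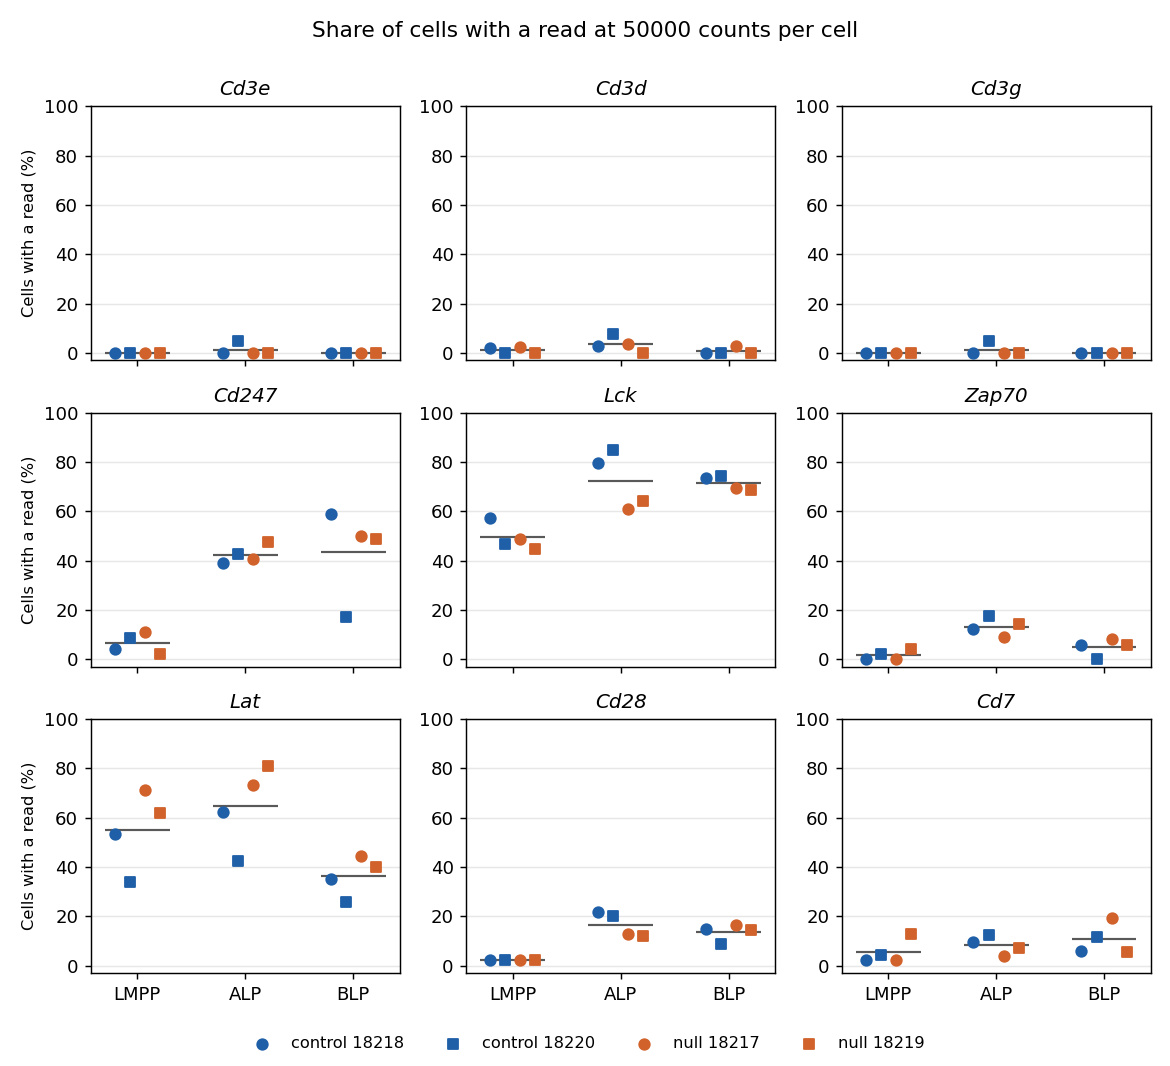
Percent of kept cells with at least 1 read of each gene after every cell was thinned to 50000 counts, by gate; each point is 1 mouse, blue control and orange null, and bars are means over 4 mice. Lck, Cd247, Cd28 and Zap70 are read in more ALPs than LMPPs in each mouse, and Lat in fewer BLPs than ALPs in each mouse.

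Within ALPs, the cells were divided by an Ebf1 read at equal depth. In control mice 24 of 74 and 7 of 40 ALPs had one, and in null mice 48 of 79 and 31 of 42. Cd28 was read in 20.8%, 14.3%, 10.4% and 6.45% of ALPs with an Ebf1 read and in 22.0%, 21.2%, 16.1% and 27.3% of those without, lower in the Ebf1 cells of each mouse. Lat and Cd247 went the other way in 3 of 4 mice. Lat was read in 70.8%, 57.1%, 75.0% and 77.4% of ALPs with an Ebf1 read and in 58.0%, 39.4%, 71.0% and 90.9% without. Cd247 was read in 50.0%, 42.9%, 41.7% and 41.9% with and in 34.0%, 42.4%, 38.7% and 63.6% without. Lck was also higher in the Ebf1 cells of 3 of 4 mice, at 87.5%, 85.7%, 56.3% and 67.7% with and 76.0%, 84.8%, 67.7% and 54.5% without. These are values per mouse with no test, and some rest on as few as 7 cells.

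The step from LMPP to ALP asks what is gained when IL-7Ra appears. In the fit over both genotypes, Cd28 was the only member past the threshold, higher in ALP by 6.08 on the log2 scale (SE 0.84, adjusted p = 0.0135 by edgeR's quasi-likelihood test), and higher in 4 of 4 mice. Over all genes tested 0.724% were called higher and 0.367% lower in this comparison. The size of the change rests on LMPP libraries with few reads. Cd28 was no longer called when mouse 18217 was left out (log2 change 5.46, adjusted p = 0.0508 by edgeR), nor without 18218 (6.19, adjusted p = 0.238), without 18220 (5.92, adjusted p = 0.325) or without the ALP libraries of 18219 and 18220 (5.97, adjusted p = 0.114). Without mouse 18219 it was still called (7.85, adjusted p = 0.0398). The adjusted p stood at 0.0440 with mouse as a block and at 0.0131 without the 2 cells with Cd3 reads. Cd247 was higher by 3.32 (SE 0.63) with an edgeR adjusted p of 0.0512, just outside the threshold. It passed when each cell was thinned to equal counts (0.00114), with no filter on low counts (0.000182), with all sorted cells (0.0490), with column layout as a block (0.0435), by DESeq2 (2.88e-07) and by shares of cells (0.0383). It was not called by edgeR with any mouse left out, by limma-voom (0.101) or with mouse as a block (0.0831). Zap70 (4.49, SE 1.53, adjusted p = 0.265), Lck (0.77, SE 0.27, adjusted p = 0.272), Cd7 (1.56, SE 0.78, adjusted p = 0.450) and Lat (0.27, SE 0.18, adjusted p = 0.626) were not called by edgeR. For Lck the share of cells gave another answer: it was 23.0 percentage points higher in ALPs by limma over the shares of all genes (adjusted p = 0.00786), and with cells thinned to equal counts edgeR put it at 0.0318. Over both genotypes 5 of 8 members had an unadjusted p under 0.05 by edgeR, against 13.2% of all genes. DESeq2 called 4 against 7.55%, and limma-voom called 1 against 1.36%. Cd3d is among the 5, at 9.52 CPM in the ALPs of control mouse 18220, or 1.23 without the 2 cells with Cd3 reads. No overlap between the ALP and LMPP libraries was seen for Cd28, Cd247, Cd3d and Zap70, 4 of the 8 members tested, against 4.19% of all genes, and none was lower in this way, against 4.08%. In that count Cd3d rests on at most 0.288 CPM in 3 of its 4 ALP libraries. Taken within 1 genotype, edgeR called none of the 8 in control mice (0 members, 7 at an unadjusted p under 0.05, DESeq2 calling 6 and limma-voom 1) and none in null mice (0, 2, 2 and 0 in that order). The 7 in control mice include Cd3e, Cd3d and Cd7. In the ALPs of control mouse 18220 these fell from 13.4, 9.52 and 30.9 CPM to 0.0426, 1.23 and 4.68 without the 2 cells. Of all genes in control mice, 8.77% had an unadjusted p under 0.05, DESeq2 called 4.62% and limma-voom 0.482%. In null mice these shares were 8.78%, 4.65% and 0.136%. By edgeR 0.176% and 0.156% of all genes were called higher and 0.0955% and 0.0553% lower.

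From ALP to BLP, edgeR called 0 of 8 members over both genotypes, against 0.0301% of all genes higher and 0.01% lower. Lat had the smallest p, lower in BLPs by 0.84 on the log2 scale (change of -0.84, SE 0.18, adjusted p = 0.249, lower in 4 of 4 mice), and was the 1 member at an unadjusted p under 0.05, against 9.7% of all genes. DESeq2 (adjusted p = 0.00201) and edgeR with thinned cells (0.0326) called it, and limma-voom called no member. Of all genes DESeq2 called 3.76% and limma-voom 0.0201%. Zap70 differed by -2.43 (SE 1.39, adjusted p = 0.611). Within a genotype edgeR called 0 of 8 members in control mice and 0 in null mice, with 2 in each at an unadjusted p under 0.05, and DESeq2 called 2 in control mice (Lat and Cd3d) and none in null mice. For Cd3d the ALP level of control mouse 18220 was 9.52 CPM, or 1.23 without the 2 cells with Cd3 reads. Of all genes in control mice, edgeR called 0.00502%, DESeq2 2.99% and limma-voom 0.01%, and 7.5% had an unadjusted p under 0.05. In null mice these shares were 0.0%, 2.25%, 0.0% and 6.4%. No member had BLP libraries that were all above or all below the ALP libraries, against 2.2% and 2.7% of all genes.

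Loss of Mbd3 was compared within each gate with 2 mice against 2. By edgeR 0 of 8 members passed the threshold in LMPP, in ALP or in BLP, where 0 to 0.00502% of all genes were called in either direction. At an unadjusted p under 0.05 there were 2 members in each gate, against 6.76% of all genes in LMPP, 4.5% in ALP and 8.83% in BLP. DESeq2 called 1 in LMPP (Cd28), 0 in ALP and 1 in BLP (Cd3d), against 2.49%, 1.36% and 4.02% of all genes. In the LMPPs of null mouse 18219, 1 cell held 145 of 159 Cd28 reads, and the 2.73 CPM fell to 0.241 without it. In the BLPs of null mouse 18217, 1 cell held 375 of 384 Cd3d reads, and the 7.20 CPM fell to 0.169 without it. By limma-voom 0 members and 0.0% of all genes were called in each gate. Lat was higher in null mice by 0.85 in LMPP (SE 0.26, adjusted p = 0.698), 0.55 in ALP (SE 0.26, adjusted p = 1.0) and 0.77 in BLP (SE 0.26, adjusted p = 0.540), all by edgeR, and in each gate both null libraries were above both control libraries. Lck went the other way, with log2 changes of -0.68 (SE 0.38, adjusted p = 0.741), -0.91 (SE 0.38, adjusted p = 1.0) and -0.58 (SE 0.38, adjusted p = 0.678), and both null libraries were below both control libraries in each gate. Libraries that do not overlap are common with 2 against 2: 16.2% of all genes were higher and 17.8% lower in null LMPPs in this way, 17.1% and 17.0% in null ALPs, and 16.3% and 17.1% in null BLPs. Among the 8 members the higher ones were Lat in each gate with Cd28 and Zap70 in BLPs, and the lower ones were Lck in each gate with Cd28, Cd7 and Cd3e in ALPs. For Cd3e in ALPs this rests on 1 read in control mouse 18218 against 0 in both null mice, and on the 2 cells in 18220, where the level without them was 0.0426 CPM. The 3 gates come from the same mice and do not give independent support. At equal depth an Lck read was found in 82.4 ± 3.73% of control ALPs and 62.5 ± 2.49% of null ALPs, and a Lat read in 52.3 ± 13.9% and 77.2 ± 5.33% (SD, n = 2 mice each). For Lck the shares were 52.1 ± 7.52% and 46.8 ± 2.98% in LMPPs, where the genotypes overlapped, and 73.9 ± 0.535% and 69.0 ± 0.617% in BLPs. For Lat they were 43.6 ± 13.5% and 66.4 ± 6.65% in LMPPs, and 30.5 ± 6.77% and 42.2 ± 3.14% in BLPs.

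Cd7 was lower in null ALPs by 2.42 on the log2 scale (change of -2.42, SE 1.14, adjusted p = 1.0 by edgeR), with 10.8 and 30.9 CPM against 5.51 and 2.27. Without the 2 cells with Cd3 reads the control values were 10.8 and 4.68, and the groups overlapped. Cd28 was at 33.8 and 61.9 CPM in control ALPs and at 30.2 and 20.2 in null ALPs, while in BLPs it was at 32.9 and 30.3 against 54.9 and 60.5. The difference between these genotype effects was not past the threshold (edgeR adjusted p = 0.903). No member passed in the test of ALP against LMPP effects or of BLP against ALP effects by edgeR (0 of 8 each, with 2 at an unadjusted p under 0.05 in each, and 0.0% of all genes called). An unadjusted p under 0.05 was found for 5.25% and 6.38% of all genes in these tests. DESeq2 called Cd3d in the BLP against ALP test, where 1 null BLP holds 97.7% of its library's reads, and limma-voom called none. Of all genes DESeq2 called 1.2% in the first test and 1.77% in the second, and limma-voom 0.0% and 0.00502%.

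Other genes of the pathway were followed through a list of 55, of which 53 were in the table and 48 were tested. Between LMPP and ALP over both genotypes edgeR called 1 of the 48 higher and 0 lower, against 0.724% and 0.367% of all genes. The same shares apply to the counts called per role below. Of the 48, 32 pointed up and 16 down, with a median log2 change of 0.37, against 0.00841 over all genes. In BLP against ALP edgeR called none, against 0.0301% of all genes higher and 0.01% lower. In each of the genotype comparisons it called none, against 0 to 0.00502% of all genes in either direction. The gene called was Sh2d2a, a T cell adaptor that binds LCK, at 0.105 to 5.08 CPM in LMPPs, 14.8 to 53.5 in ALPs and 18.2 to 60.4 in BLPs (log2 change 4.78, SE 0.82, adjusted p = 0.0351). Without the 2 cells its level in the ALPs of control mouse 18220 was 12.8 CPM in place of 32.4. Its adjusted p by edgeR was 0.0616 with mouse as a block, 0.0501 without the 2 cells with Cd3 reads, and 0.191 to 0.390 with any 1 mouse left out.

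Receptor chains and their partner were low in all gates. Trbc2, a beta chain constant gene, was the highest of them at 4.84 to 27.3 CPM in LMPPs, 16.0 to 71.2 in ALPs and 30.3 to 44.8 in BLPs. Trat1, a receptor-associated adaptor, rose no further than 16.3 CPM in any library, and Trac, the alpha chain constant gene, was at 0.0105 to 0.135 CPM in LMPPs with a maximum of 38.2 in the ALP library that holds the 2 cells (1.49 without them). Of the 5 tested in this role, 0 were called by edgeR between LMPP and ALP. Among coreceptors and surface proteins (0 of 8 called), Cd27, a costimulatory receptor found on many lymphoid progenitors, stood at 380 to 869 CPM over the 12 libraries, Icos at 2.68 to 88.3, and Cd6 at 3.07 to 6.32 in LMPPs and 7.43 to 88.0 in ALPs (adjusted p = 0.0508 by edgeR). Cd4 was read at 0 to 12.2 CPM.

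Genes that serve many white blood cells were read in every gate. Of 10 proximal kinases and phosphatases (0 called), Ptprc, the CD45 phosphatase that activates LCK, was at 309 to 559 CPM, Ptpn6, an inhibitory phosphatase, at 169 to 403, and Csk, the kinase that restrains LCK, at 85.1 to 221. Of 11 adaptors tested (1 called), Tespa1 stood at 111 to 274 CPM and Nck1 at 42.0 to 115. Fyb was at 37.3 to 103 CPM in LMPPs and ALPs and at 79.6 to 130 in BLPs. Of 14 downstream effectors (0 called), Vav1, an exchange factor, stood at 105 to 243 CPM and Map4k1 at 82.2 to 183. Dgkz was at 34.2 to 186 CPM in LMPPs and ALPs and at 96.9 to 250 in BLPs. The T cell kinase Txk did not exceed 19.1 CPM in any library, or 0.517 in ALPs without the 2 cells, and at least 10 reads were found in 5 kept cells.

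The T commitment markers did not move as 1 block. Their summed level was 66.6 to 290 CPM in LMPPs, 373 to 475 in ALPs and 424 to 581 in BLPs, and most of it was Notch1 (44.8 to 247, 220 to 293 and 246 to 404 CPM), which other progenitors also express. Bcl11b stayed at 0.294 to 6.78 CPM over all 12 libraries (at most 3.28 in ALPs without the 2 cells) and Themis at or under 0.108 CPM in all but the ALP library of control mouse 18220. Summed mature T cell markers were 24.3 to 36.0 CPM in LMPPs, 74.3 to 226 in ALPs and 66.9 to 120 in BLPs, and the ALP maximum was 141 without the 2 cells. Natural killer and innate lymphoid markers summed to 339.5 to 505, 439 to 610 and 427 to 549 CPM, and to no more than 504 in ALPs without the 2 cells. Nkg7, at 10 reads in 80.7% of kept cells, made up 300 of the 610 CPM in the ALPs of control mouse 18220. The part of T, natural killer and innate lymphoid cells in the members' levels was not tested beyond leaving the 2 cells out.

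The genes whose levels most resembled those of a member were sought over the 12 libraries among 7445 genes, by Pearson's r of log2(CPM + 1), as a description. The libraries share mice and gates, and a median gene had an r near 0. Cd28 was most like Tmem119, Mpeg1 and Cox6a2 (0.959, 0.958 and 0.955), and Cd247 most like Ikzf1, Incenp and Arpp21 (0.960, 0.954 and 0.952). Lck was most like Bcl2, Sh2d5 and Sf3a2 (0.916, 0.901 and 0.890), and Lat most like Cd74, Got2 and Mpo (0.906, 0.892 and 0.866). For Cd7 these were Sla2, Rnf141 and Rrs1 (0.928, 0.920 and 0.900), and for Zap70 they were Med24, Ppm1l and Zcchc8 (0.851, 0.849 and 0.826).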

How the data were processed

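Full-length single-cell sequencing gave the deposited values, raw read counts for each gene in each cell. The authors used GSNAP 2015-09-29 and HTSeq 0.5.3p3 on mm10, per the submitters' processing notes, and those sources do not give the strand setting. There are no molecular identifiers, so intervals and limits cover counting error only. Symbols, coordinates and exon lengths came from GENCODE (GRCm38, the assembly of mm10). Genes took 43.2% of all counts, and spike-ins (6.13%) and summary entries (50.7%) were left out.

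A cell needed 50000 counts and 1000 genes of the nuclear genome, with no more than 20% of counts from mitochondria and 50% from spike-ins; no 2 cells had identical counts, and no doublet caller was run on cells sorted singly. Kept cells were summed into 12 libraries and compared with edgeR 4.0.16 (quasi-likelihood test after filterByExpr and TMM scaling, under R 4.3.3). All 6 groups shared the fit, which left 6 residual degrees of freedom. The Benjamini-Hochberg method adjusted p over 19903 genes, and 0.05 was the threshold. Each SE is approximate, taken as the log2 change over the root of its F statistic. CPM uses TMM-scaled sizes. Alternatives were DESeq2 1.42.0, limma-voom 3.58.1, other scalings, filters, cell weights and left-out mice. Code was tested on simulated data. Each edgeR p-value sets a change against the spread between libraries of a group. That spread mixes differences between mice with the sampling of cells, and the main fit had no term for mouse.

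The same mouse gave all 3 gates, so libraries are paired between gates by the mouse number of the titles. Deviations of libraries of 1 mouse correlated by 0.0389 to 0.0747 across genes. The members, gene lists and tests were chosen with earlier results of these data known. Named genes were the 9 members, list members past the threshold, up to 3 genes per role with the highest mean CPM, and the 3 most similar genes for members reaching 20 CPM in a group. Txk, Cd4, Bcl11b, Themis, Notch1 and the genes given for single cells were chosen after their values were seen.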

Additional observations from a re-analysis of the deposited data

Results flagged for a closer look

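Among the 4 mice of a gate, 10 levels stood far from the other 3 by Dixon's criterion for 4 samples, out of 27 sets of values. For independent values with a normal spread, chance flags about 1 in 20 sets. These levels are skewed, often set by 1 cell, and share mice, so the rate by chance is not known here. The ALPs of control mouse 18220 were high for Cd3e (13.4 CPM, others 0 to 0.00808), Cd3d (9.52, others 0.226 to 0.288), Cd3g (16.6, others 0 to 0.0320) and Cd247 (86.4, others 74.8 to 76.7). For the 3 Cd3 genes the value came mostly from cells 8 and 22, and Cd247 without them was 84.7 CPM.

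The LMPPs of null mouse 18219 were high for Cd28 (2.73 CPM, others 0.148 to 0.203), Cd7 (11.8, others 0.916 to 1.57) and Zap70 (7.52, others 0.0404 to 0.326). These reads came from different cells. Of its 47 kept LMPPs, 9 had at least 10 reads of Cd28, Cd7, Zap70 or Cd247, and 1 of the 9 had 10 reads of more than 1 of these genes. None of the 9 had more than 3 reads of Il7r or 1 read of Trac, and all had Dntt (292 to 4556 reads).

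The BLPs of null mouse 18217 were high for Cd3d (7.20 CPM, others 0.00955 to 0.0490), Cd3e (0.843, others 0 to 0.0573) and Zap70 (19.6, others 0.115 to 2.86). Cell 16 held 375 of 384 Cd3d reads, 1 cell held 44 of 45 Cd3e reads, and the largest cell held 59.9% of the Zap70 reads.

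Cells outside the comparisons also held Cd3 reads, above the 3 reads that a count of 0 allows. ALP 33 of control mouse 18220 was left out with 20.1% mitochondrial counts, just above the limit. It had 105 reads of Cd3g, 180 of Cd3d and 14 of Cd3e, with 646 of Lck, 351 of Cd7, 195 of Cd247, 295 of Trac, 280 of Bcl11b and 448 of Tcf7. ALP 7 of null mouse 18219, left out with 72.6% mitochondrial counts, had 398 reads of Cd3g and fewer than 10 of Cd3e, Cd3d and Trac.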

How the results depend on the processing

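Of the recomputed counts of members called, 147 stayed the same and 26 moved. From LMPP to ALP over both genotypes edgeR called 1 member. The count was 2 with no filter, with all cells kept and with column layout (2 mice stand in the first part of the table and 2 in the last) as a block; 3 with each cell thinned to equal counts; 4 by DESeq2 and by limma on shares; 0 without the ALP libraries of 18219 and 18220; and 0 to 1 with any mouse left out. It stayed 1 with mouse as a replicate block, where Cd28 changed by 6.35 and Cd247 was not called, and the block changed no call of a member. In control mice alone the count of 0 became 2 with no filter, thinned cells or shares, 1 without the largest cell of each gene or by limma-voom, and 6 by DESeq2. In null mice it became 2 with no filter, thinned cells or DESeq2 and 1 without the largest cell. From ALP to BLP it became 1 with thinned cells and 1 by DESeq2 over both genotypes, and 2 by DESeq2 in control mice. DESeq2 also gave 1 for the genotype effect in LMPP, in BLP and between BLP and ALP. The layout block and the fit without the 2 cells with Cd3 reads were chosen after seeing the data. Counts over all genes moved as well. From LMPP to ALP over both genotypes the main fit called 144 of 19903 genes higher. This number was 367 of 34764 with no filter, 345 of 12977 with thinned cells, 897 of 19903 by DESeq2 and 231 of 16151 by shares. In control mice alone 35 became 115 with no filter, 105 with thinned cells and 545 by DESeq2. In null mice 31 became 128, 157 and 615 in that order. The cause of the differences between settings was not tested. No fold change named in the text reversed under the 16 alternatives: 224 recomputed values kept their side of the threshold, 12 passed it and 13 no longer did. Depth limits the genes with few reads: 0 of 186 LMPPs with 10 reads of a Cd3 gene allows up to 1.61%. The spread between mice was wide, with a biological coefficient of variation of 86.9% on 6 residual degrees of freedom.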
